A study of Rattus norvegicus with 12 samples.

Results

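The comparison described here is that of ketotifen with placebo in the lungs of rats with heart failure. It takes 6 of the 12 arrays of the series, 3 from CHF ketotifen lungs and 3 from CHF placebo lungs, chosen by their labels, and it covers the 16536 of 31042 probe sets whose log2 value reached 4 in at least 3 of the 12 arrays. All rats were male Sprague-Dawley rats. Congestive heart failure, CHF, followed a clip placed on the supracoronary aorta of juvenile rats weighing 91 ± 9 g, 9 weeks before the lungs were taken. The CHF ketotifen rats drank ketotifen fumarate at 1 mg per kg per day from the day after surgery, and the CHF placebo rats did not; the labels speak of placebo and the design text of untreated rats. The sham placebo and sham ketotifen rats, used below as a second drug comparison, had the same surgery without the clip. The design text gives 3 rats per arm, so the p-values measure the spread between rats that were each measured on 1 array of whole lung RNA.

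Ketotifen blocks the histamine H1 receptor and keeps mast cells from releasing their granules. Mast cells lie along airways and vessels of the lung and release histamine, proteases, prostaglandins and cytokines. Several of the gene groups below are linked: the cytokines interleukin 1 and tumour necrosis factor act through the transcription factor NF-kappaB, which switches on chemokines, adhesion molecules and its own inhibitors, while immediate early genes answer many stimuli within minutes to hours without new protein synthesis.

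The 6 lungs were not equally alike. CHF ketotifen arrays 1 and 3 differed from each other with an SD of 0.26 over probe sets (log2), against 0.54 to 0.55 for the other ketotifen pairs and 0.42 to 0.69 for the placebo pairs. They were kept as separate samples. CHF placebo lung 1 stood apart from placebo lungs 2 and 3, which were the closest placebo pair. As a sign of RNA quality, the beta-actin controls gave a signal gap between their 3' and 5' ends, larger in degraded RNA, of 3.01 to 3.40 in CHF placebo and 2.90 to 3.41 in CHF ketotifen lungs. The labelled tissue was borne out by the alveolar type 2 and surfactant genes, whose mean level was 12.2 to 12.5 in CHF placebo and 12.3 to 12.6 in CHF ketotifen lungs.

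Over all 16536 probe sets, a few large increases stood against more numerous small decreases. The log2 difference, CHF ketotifen minus CHF placebo, was positive in 44.8% of them. Its median was -0.04, its quartiles were -0.29 and 0.18, and its 1st and 99th percentiles were -1.42 and 1.60. The median was -0.006 with quantile normalization and 0.02 with no filter on low values, so the small downward lean depended on the processing. Differences past 1, which is a doubling, were found in 400 probe sets upward and 476 downward. Past 2 the counts turned to 92 and 59, past 3 to 30 and 6, and past 4 to 16 and 0. In sham lungs the drug comparison gave 23 and 29 probe sets past 2, and 2 and 1 past 4. By these fitted values the upper end of the distribution in CHF lungs was thus longer than the lower one. Probe sets near background added mostly to the upper end. Of those with a CHF placebo mean under 4, 78 were past 1 upward and 2 downward. The counts were 151 and 128 at a mean of 4 to 6, and 112 and 197 at 6 to 8. They were 50 and 90 at 8 to 10, and 9 and 59 over 10.

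Limma called 201 probe sets (1.22%), 136 higher (0.822%) and 65 lower (0.393%) with ketotifen, at a Benjamini-Hochberg adjusted p under 0.05. The split ran the other way at an unadjusted p under 0.05, with 1096 higher and 1737 lower. It also ran the other way among probe sets whose 3 ketotifen lungs lay wholly on one side of the 3 placebo lungs, with 9.86% higher and 15.5% lower. With every value under log2 4 set to 4, called increases had a median size of 1.67 and reached 6.43, and called decreases had a median size of 1.16 and reached 3.43. The starting level differed too. Of the called increases 43 began from a CHF placebo mean under 4, near background, so their fitted sizes are uncertain. A probe set at that level cannot fall measurably. In 24 of them all 9 other lungs lay under 4, so they passed the filter on low values only through the CHF ketotifen lungs. They had to differ to be tested, and their adjusted p is no support for a difference. Of the genes named below these are Ccl7, Cxcl2, Fosb, Cyp1a1, Gfpt2, Depdc1, Sele, Il1r2, Il1rn, Arid5a, Srxn1, Mt1, Kif20a, Nuf2, Melk, Resp18 and Frzb by its dimmer probe set. Of the other named genes, Il6, Tfpi2, Nr4a3, Adamts4, Ccl4, Cxcl10, Ccnb1, Kif22, Shcbp1 and Slc22a3 had 1 other lung at or over 4. Areg had 2. These also reached the 3 arrays of the filter only with CHF ketotifen lungs, and their adjusted p carries the same limit. Probe sets with a placebo mean between 6 and 8 gave 24 increases and 26 decreases, and those over 10 gave 4 and 10.

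**Figure D1:**
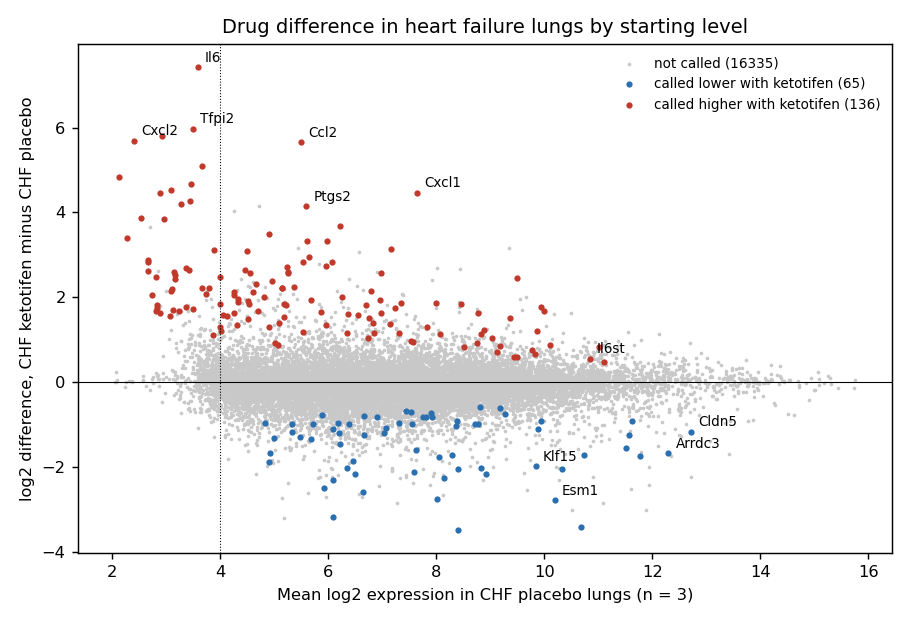
Each point is 1 of 16536 probe sets, with the mean log2 expression in 3 CHF placebo lungs on the horizontal axis and the log2 difference, CHF ketotifen minus CHF placebo, on the vertical axis; the dotted line marks log2 4. The 136 called increases (red) reach a fitted 7.42, which is uncertain in size at placebo levels under 4, where 43 of them lie. Of the 65 called decreases (blue), 11 lie at placebo levels of 4 to 6 and the others at higher levels.

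The count of calls rested heavily on single lungs. It was 1219 without CHF placebo lung 1, and then 528 were higher and 691 lower. It fell to 72 without CHF placebo lung 2 and to 73 without lung 3, with 9 decreases in each. Without CHF ketotifen lungs 1, 2 and 3 it was 107, 124 and 98. With the near pair of ketotifen arrays averaged into 1 sample it was 88, of which 71 were higher. CHF placebo lung 1 was the placebo lung nearest to the ketotifen lungs in 93 of the 136 called increases and in 56 of the 65 decreases. Measured between the mean of placebo lungs 2 and 3 and the ketotifen mean, it lay at a median of 20.5% of the way for increases and 30.9% for decreases. In the CHF ketotifen group lung 2 was nearest to placebo in 58 increases and lung 1 in 33 decreases, so no single ketotifen lung held that place.

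**Figure D2:**
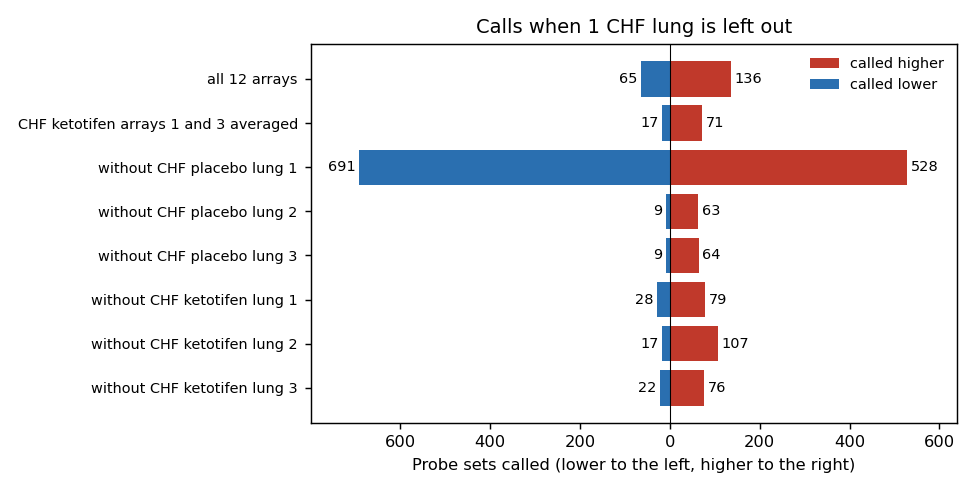
Bars give the number of probe sets called higher (red, to the right) and lower (blue, to the left) with all 12 arrays, after averaging CHF ketotifen arrays 1 and 3, and after leaving out each of the 6 CHF lungs. Without CHF placebo lung 1 the bars grow to 528 and 691, and without placebo lung 2 or 3 the lower bar shrinks to 9.

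The called probe sets stood for 112 genes higher and 45 genes lower, counted by any called probe set with a single symbol. Counted by each gene's brightest probe set, 137 of 9788 genes were called (1.4%): 99 rose (1.01%) and 38 fell (0.388%), and the median difference over these genes was -0.02. The gene lists below use this second count, for which the shares over all genes are 1.01% and 0.388%. The lists were chosen with earlier results of these data known. A list share above those of all genes is therefore a description and no test of the list. The lists also hold members that passed the filter on low values only with CHF ketotifen lungs. Such members had to be high with ketotifen to be counted. List counts and medians that include them carry the same limit as their adjusted p. In all, 788 listed genes were measured, of which 46 rose and 8 fell. Without CHF placebo lung 1 these were 107 and 46, and without CHF placebo lung 2 they were 31 and 1.

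Of 12 measured cytokine genes, out of 26 on the array, 4 rose and 0 fell, with a list median of 0.65. Il6 and Il1rn reached the filter on low values only with CHF ketotifen lungs, so this count and median carry that limit. Il6 encodes interleukin 6, which drives the acute phase response. Its log2 level was 5.73, 2.52 and 2.49 in CHF placebo lungs 1 to 3 and 11.23, 11.21 and 10.58 in CHF ketotifen lungs 1 to 3. Placebo lung 1 alone was above background in its group, and the ketotifen lungs lay at least 4 log2 units above even that lung. Counted from a floor of log2 4, Il6 was at least 86.1-fold higher (limma adjusted p = 0.0003). Its level was 2.48 to 2.56 in all 6 sham lungs.

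Il1b, the inflammatory cytokine interleukin 1 beta, had log2 levels of 6.5, 7.14 and 7.87 with placebo and 10.17, 10.99 and 9.75 with ketotifen, an 8.77-fold rise (log2 difference 3.13, SE 0.41, with 3 lungs in each group; limma adjusted p = 0.00366). Il1rn, which encodes the antagonist of the interleukin 1 receptor, rose beside it from near background, at least 2.47-fold (adjusted p = 0.00594). Osm, the interleukin 6 family member oncostatin M, rose by 1.55 ± 0.25 (adjusted p = 0.014), but not without CHF placebo lung 2 (adjusted p = 0.0852), ketotifen lung 1 (0.0563) or CHF ketotifen lung 2 (0.051). Tnf, tumour necrosis factor, was below log2 3 in every placebo lung and at 5.64, 9.25 and 4.13 with ketotifen. The groups did not overlap, but ketotifen lung 2 stood far above the other two and Tnf was not called (3.65 ± 0.93, adjusted p = 0.0873). Without that lung it was (2.19, adjusted p = 0.0224), and also without CHF ketotifen lung 3 (4.75, adjusted p = 0.0257). On the receptor side Il1r2, the decoy receptor that binds interleukin 1 without signalling, rose at least 2.42-fold (adjusted p = 0.000517). Tlr2, a sensor of bacterial lipoproteins, went from 4.77 to 4.90 with placebo to 6.80 to 6.85 with ketotifen, a 4.02-fold rise. These were 2 of the 13 measured genes of interleukin 1 and Toll-like signalling, whose list median was 0.12.

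**Figure D3:**
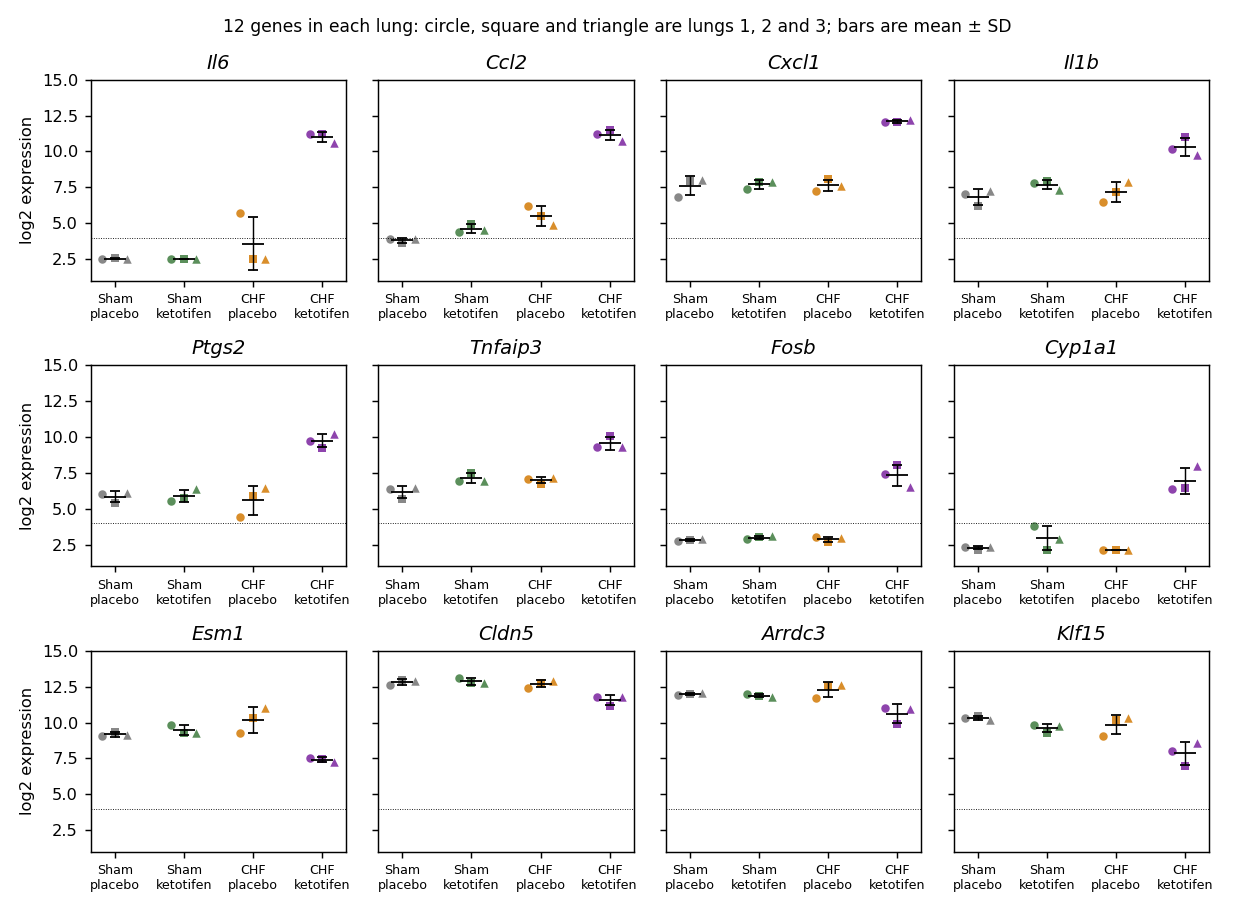
Each panel gives the log2 expression of 1 gene in every lung of the 4 groups, with circles, squares and triangles for lungs 1, 2 and 3 and black bars for mean ± SD (n = 3); the dotted line is log2 4. In the first 8 genes the CHF ketotifen lungs lie above all other lungs, and in Esm1, Cldn5, Arrdc3 and Klf15 they lie below the CHF placebo lungs.

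Chemokines draw leukocytes out of the blood. Of 11 measured CC chemokine genes 4 rose and 0 fell (median 0.98). Of 11 CXC, CX3C and XC chemokine genes 3 rose and 0 fell (median 0.73). Ccl7, Ccl4, Cxcl2 and Cxcl10 reached the filter only with CHF ketotifen lungs, so these counts and medians carry that limit. Ccl2, a monocyte attractant, had log2 levels of 6.18, 5.48 and 4.84 with placebo and 11.23, 11.48 and 10.75 with ketotifen. Ccl7, which shares its receptor, went from 3.24, 2.81 and 2.74 to 8.91, 8.95 and 8.33, at least 26.5-fold (adjusted p = 2.16e-07), but it was tested only through the ketotifen lungs. Both rose with gaps between the groups of more than 4 log2 units and little spread within them. Ccl3, which attracts monocytes and other leukocytes, went from 6.42, 6.0 and 6.26 to 9.34, 11.45 and 8.90. It was 12.7-fold higher (log2 3.67 ± 0.60, adjusted p = 0.0148), with ketotifen lung 2 highest as for Tnf. Ccl4, its close relative, rose at least 4.22-fold (adjusted p = 0.0395). Ccl3 lost its call without CHF placebo lung 2 (adjusted p = 0.0858) or lung 3 (0.0705). Ccl4 lost it without CHF placebo lung 2 (0.168) or 3 (0.139), or without ketotifen lung 1 (0.0966) or 2 (0.108).

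Among the neutrophil attractants Cxcl1 had log2 levels of 7.26, 8.06 and 7.60 with placebo and 12.07, 12.03 and 12.22 with ketotifen. The ketotifen lungs lay close together and far above every placebo lung. Cxcl2 went from 2.68, 2.26 and 2.27 to 8.47, 8.05 and 7.75, at least 17.0-fold (adjusted p = 2.32e-07), and like Ccl7 was tested only through the ketotifen lungs. Cxcl10, an interferon-induced attractant of T cells, rose at least 3.97-fold (adjusted p = 0.00693). Of 24 interferon-induced genes 0 were called, with a median of 0.39. The 5 probe sets annotated to Cxcl3 disagreed. The 3 dimmer ones rose by 1.58 to 2.64, while the 2 brightest, at log2 13.7 and 12.6 with placebo, gave 0.52 (adjusted p = 0.432) and 0.57 (adjusted p = 0.428).

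The promoters of 5 genes that rose are printed here because they hold the letters of the NF-kappaB site or of the cyclic AMP response element. They come from RefSeq on the GRCr8 assembly and are the 200 bases before the annotated start, on the minus strand in each case. Capitals mark matches on either strand to the standard NF-kappaB consensus or to TGACGTCA, the cyclic AMP response element. In Cxcl1 and Cxcl2 a capital run joins 2 overlapping matches. The places are chr4:5894576-5894775 for Il6, chr14:17479322-17479521 for Cxcl1, chr14:17467256-17467455 for Cxcl2, chr1:15543980-15544179 for Tnfaip3 and chr14:17265642-17265841 for Areg. Tnfaip3 and Areg are described below.
Il6: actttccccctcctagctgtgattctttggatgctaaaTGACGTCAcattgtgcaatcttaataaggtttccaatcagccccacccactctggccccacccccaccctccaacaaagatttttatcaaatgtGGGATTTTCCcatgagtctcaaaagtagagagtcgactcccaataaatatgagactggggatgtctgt
Cxcl1: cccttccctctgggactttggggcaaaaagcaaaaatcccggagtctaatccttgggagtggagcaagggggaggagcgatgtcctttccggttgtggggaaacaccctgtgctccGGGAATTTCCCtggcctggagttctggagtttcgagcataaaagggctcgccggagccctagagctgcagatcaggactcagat
Cxcl2: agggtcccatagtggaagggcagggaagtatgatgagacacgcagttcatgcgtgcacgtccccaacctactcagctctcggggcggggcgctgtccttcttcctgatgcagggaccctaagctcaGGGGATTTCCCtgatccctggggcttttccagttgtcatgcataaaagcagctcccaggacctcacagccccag
Tnfaip3: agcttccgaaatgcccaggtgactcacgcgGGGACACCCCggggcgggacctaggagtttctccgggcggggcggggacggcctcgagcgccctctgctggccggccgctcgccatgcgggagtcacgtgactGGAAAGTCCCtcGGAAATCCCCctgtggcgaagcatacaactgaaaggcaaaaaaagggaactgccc
Areg: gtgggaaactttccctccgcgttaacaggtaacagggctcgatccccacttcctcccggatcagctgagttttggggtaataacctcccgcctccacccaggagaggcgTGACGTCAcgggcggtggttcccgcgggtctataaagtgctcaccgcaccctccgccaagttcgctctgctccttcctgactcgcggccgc

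Of the 112 genes with a called increase 89 had a RefSeq promoter, as did 40 of the 45 with a called decrease. In the 250 bases before the start, the NF-kappaB consensus was found in 12 of the 89 (13.5%), in 1 of the 40 and in 3.82% of all 27457 genes with a promoter. The 12 included Bcl3, Nfkbiz, Cxcl10, Socs3, Tfpi2 and Tlr2 beside those printed. The letters TGACGTCA stood in 7 of the 89 (7.87%), in 0 of the 40 and in 1.78% of all genes; Crem, Rcan1, Skil, Slc25a25 and Cenpw were the 5 not printed. TGANTCA, the AP-1 site, stood in 10 of the 89 (11.2%), among them Tfpi2, Ccl7 and Plaur, in 0 of the 40 and in 6.99% of all genes. TTGCGTG, the aryl hydrocarbon receptor's site, stood in 1 of the 89, in 0 of the 40 and in 1.09% of all genes. All motifs were searched on both strands, and the rarer ones give few genes on which to compare the shares.

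Of 21 NF-kappaB subunit and feedback genes 6 rose, 0 fell and 20 had a positive difference, with a median of 0.50. Tnfaip3 encodes A20, an enzyme that shuts down NF-kappaB signalling. Its log2 levels were 7.06, 6.74 and 7.15 with placebo and 9.29, 10.09 and 9.33 with ketotifen, a 6.01-fold rise (log2 2.59 ± 0.27, adjusted p = 0.000951). Bcl3 and Nfkbiz, both nuclear members of the inhibitor family that modify NF-kappaB's choice of genes, rose by 2.39 ± 0.21 and 1.87 ± 0.17 (adjusted p = 0.000266 for both). Birc3, an inhibitor of cell death, rose by 2.32. Zc3h12a, a nuclease that degrades Il6 messenger RNA, rose by 1.89 (adjusted p = 0.00118), and Arid5a, which stabilizes the same messenger, rose at least 1.88-fold (adjusted p = 0.00676). Tnfaip2 rose by 1.94 (adjusted p = 0.0148), but not without CHF placebo lung 2 (adjusted p = 0.0851) or 3 (0.079), or without ketotifen lung 2 (0.0613) or 3 (0.0685). The subunits were not called. Nfkb1 was at 0.46 (adjusted p = 0.127), Nfkb2 at 0.51 (0.115) and Relb at 0.83 (0.188), each with groups that did not overlap. Nfkbia, the first inhibitor to be induced, was at -0.44 (adjusted p = 0.425), with overlapping groups.

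Of 21 immediate early transcription factor genes 6 rose and 0 fell, with a median of 0.68. Fosb, a partner in the AP-1 dimer, had log2 levels of 3.04, 2.70 and 2.93 with placebo and 7.46, 8.02 and 6.54 with ketotifen, at least 10.1-fold (adjusted p = 3.26e-05). Nr4a3, an orphan nuclear receptor, went from 4.56, 3.21 and 3.21 to 9.14, 8.40 and 8.71, at least 23.6-fold (adjusted p = 0.000133). Egr2 went from 6.44, 5.47 and 6.02 to 9.07, 10.57 and 8.28, a 10.1-fold rise (adjusted p = 0.00694). Atf3, a stress-induced repressor, rose 7.18-fold (log2 2.84 ± 0.44, adjusted p = 0.0104), and Myc and Ier3 rose by 1.86 and 1.78. Atf3 narrowly lost its call without CHF placebo lung 2 (adjusted p = 0.0663) or 3 (0.0503). The classical members of the family were not called. Fos was at 0.70 (adjusted p = 0.317) and Egr1 at 1.33 (adjusted p = 0.324), both with overlapping groups and both above log2 9 in every CHF lung. Junb was at 1.26 (adjusted p = 0.077) without overlap. Klf2, a flow-induced factor of endothelial cells, had log2 levels of 12.53, 12.62 and 12.47 with placebo and 11.51, 10.73 and 11.60 with ketotifen. It narrowly missed the threshold (-1.26 ± 0.27, adjusted p = 0.0524) and passed it without CHF placebo lung 1 (adjusted p = 0.0395). Of the 21 feedback phosphatase, messenger decay and stress genes 0 were called (median 0.38).

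Most genes of the interleukin 6 pathway were not called. Of 14 genes of its receptors and STAT3 targets 2 rose and 0 fell (median 0.43). These were Bcl3, given above, and Socs3, the feedback inhibitor of the receptor. Socs3 rose 4.40-fold, from 4.45, 4.74 and 4.64 to 6.94, 6.28 and 7.03 (adjusted p = 0.0344). It lost its call in 5 of 6 runs that left out a CHF lung, all but that without CHF placebo lung 1, with adjusted p up to 0.133. Il6st, the shared receptor chain gp130, was at 0.20 by its brightest probe set (adjusted p = 0.707), and 1 of 3 dimmer ones rose by 0.56 (adjusted p = 0.042).

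Ptgs2 encodes cyclooxygenase 2, the inducible enzyme of prostaglandin synthesis. Its log2 levels were 4.45, 5.92 and 6.42 with placebo and 9.76, 9.27 and 10.21 with ketotifen, a 17.8-fold rise (log2 4.15 ± 0.46, adjusted p = 0.00127). It was the single called gene of 14 in prostaglandin and leukotriene synthesis (list median 0.15). Hpgd, which breaks prostaglandins down, was at 7.62, 8.85 and 9.78 with placebo and at 6.88, 6.62 and 7.12 with ketotifen. Its groups did not overlap, but it was not called (-1.88 ± 0.46, adjusted p = 0.0781) except without CHF placebo lung 1 (-2.44, adjusted p = 0.00502). Areg, which encodes the epidermal growth factor receptor ligand amphiregulin, went from 4.59, 2.91 and 2.90 to 8.40, 8.13 and 7.90, at least 15.4-fold (adjusted p = 0.00177). The other 7 measured ligands and receptors of that family were not called, and the list median was 0.02.

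Of 17 coagulation and fibrinolysis genes 2 rose and 0 fell (median 0.28). Tfpi2, an inhibitor of serine proteases including plasmin, went from 4.38, 3.00 and 3.10 with placebo to 9.72, 9.29 and 9.37 with ketotifen, at least 40.4-fold (adjusted p = 9.37e-06). Plaur, the urokinase receptor, rose 6.65-fold, from 6.77, 5.57 and 5.51 to 8.64, 8.63 and 8.79 (adjusted p = 0.0399). Placebo lung 1 was highest in its group for both genes. Plaur lost its call in 5 of 6 runs that left out a CHF lung, all but that without CHF placebo lung 1, with adjusted p up to 0.196. Sele, encoding E-selectin, by which activated endothelium catches leukocytes, was at 2.65 to 2.70 in the placebo lungs and at 5.15, 6.61 and 4.89 with ketotifen, at least 2.92-fold higher (adjusted p = 0.00287). Its call was lost with values under 4 set to 4 (adjusted p = 0.0544) and with only the 6 CHF arrays fitted (0.0711). Selp, P-selectin, was at 1.81 (adjusted p = 0.0781; 0.0338 without CHF placebo lung 1) and Vcam1 at 0.64 (adjusted p = 0.0995), both without overlap. Sele was the 1 called gene of 14 adhesion molecules, whose median was 0.47.

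Of 21 aryl hydrocarbon receptor and Nrf2 target genes 4 rose and 0 fell (median 0.54). Of these 4, Cyp1a1, Srxn1 and Mt1 were tested only through the ketotifen lungs, so the count and median are no support for the list. Cyp1a1, the cytochrome P450 that aryl hydrocarbon receptor ligands induce, was at 2.11 to 2.13 in all 3 placebo lungs and at 6.41, 6.46 and 7.98 with ketotifen, at least 7.74-fold higher (adjusted p = 0.000383). Tiparp, another target of that receptor, rose by 1.86 ± 0.15 in 1 probe set (adjusted p = 0.000133), while a brighter one gave 1.36 (adjusted p = 0.0627). On the Nrf2 side Nfe2l2, which encodes Nrf2, rose by 0.88 (adjusted p = 0.00221) and its antioxidant target Srxn1 at least 1.72-fold (adjusted p = 0.000465). Mt1, a metal-binding metallothionein, rose at least 1.55-fold (adjusted p = 0.0125), but not without CHF placebo lung 2 (adjusted p = 0.0665) or 3 (0.0569), or with values under 4 set to 4 (0.151). Hmox1, heme oxygenase 1, was at 10.25, 8.27 and 7.83 with placebo and at 10.57, 10.75 and 9.97 with ketotifen, so placebo lung 1 lay within the ketotifen range. It was not called (1.65 ± 0.58, adjusted p = 0.186) except without that lung (2.38, adjusted p = 0.0134).

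Genes of cell division leaned upward as a group of small differences. Of 28 cell cycle and replication genes 25 had a positive difference, with a median of 0.76, and 2 passed the test. These were Ccnb1, which encodes cyclin B1 and rose at least 2.28-fold (adjusted p = 0.036), and Kif20a, a motor of cytokinesis that rose at least 1.42-fold (adjusted p = 0.0306). Both reached the filter on low values only with CHF ketotifen lungs. The count of positive differences and the median include such genes and carry that limit. The mean level of the list was 6.86, 5.94 and 5.94 in CHF placebo lungs 1 to 3 and 7.32, 7.09 and 7.15 in CHF ketotifen lungs 1 to 3, against 5.62 to 5.74 in sham lungs. Mki67, the proliferation marker Ki-67, was at 6.91, 5.10 and 5.47 with placebo and at 7.73, 7.89 and 7.42 with ketotifen. It missed the threshold (1.85 ± 0.39, adjusted p = 0.0511) and passed it without CHF placebo lung 1 (2.39, adjusted p = 0.000755). Cdk1 was at 2.07 (adjusted p = 0.0692). Top2a, the topoisomerase of dividing cells, rose by 1.35 in a dimmer probe set (adjusted p = 0.036) and was at 1.46 in a brighter one (adjusted p = 0.0597). Ccnb1 lost its call without CHF placebo lung 2 (adjusted p = 0.178) or 3 (0.159), or without ketotifen lung 1 (0.111) or 3 (0.122). Kif20a and Top2a's dimmer probe set lost theirs in every run that left out a CHF lung other than placebo lung 1, with adjusted p up to 0.157 and 0.133. Kif20a also lost it with values under 4 set to 4 (0.0767).

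Further genes of mitosis outside that list were called, and they are named here after their values were seen. Depdc1 was at 3.34, 3.06 and 3.03 with placebo and at 5.68, 5.72 and 5.79 with ketotifen, at least 3.32-fold higher (adjusted p = 9.37e-06). Cdca3 rose by 1.97 (adjusted p = 0.00196) and Shcbp1 at least 2.95-fold (adjusted p = 0.00674). Nuf2, Kif22, Cks2, Melk and Cenpw rose with adjusted p from 0.014 to 0.029. Each of these 5 lost its call in at least 3 of the 6 runs that left out a CHF lung, with adjusted p up to 0.155 (Cks2 without CHF placebo lung 2).

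Of 20 matrix protease and inhibitor genes 3 rose and 0 fell (median 0.47). Adamts4, an enzyme that cuts large proteoglycans, went from 4.18, 2.85 and 2.77 with placebo to 7.77, 7.25 and 7.41 with ketotifen, at least 10.7-fold (adjusted p = 0.000103). Timp1, an inhibitor of metalloproteases, and Mmp2, a gelatinase, rose by 1.69 and 0.86. Timp1 lost its call without CHF placebo lung 2 (adjusted p = 0.069), ketotifen lung 1 (0.0664) or 3 (0.0728). Mmp2 lost it without CHF placebo lung 3 (0.149), ketotifen lung 1 (0.106) or 3 (0.117). Of 28 structural matrix genes 0 were called (median 0.24). Vcan, the proteoglycan versican that Adamts4 can cut, was at 1.88 (adjusted p = 0.0701) and Fn1, fibronectin, at 1.00 (adjusted p = 0.0959), without overlap. Both passed without CHF placebo lung 1 (adjusted p = 0.0229 and 0.0123), and Vcan also without CHF ketotifen lung 2 (2.44, adjusted p = 0.00993).

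Other large increases came from genes of varied function. Gfpt2, the entry enzyme of the hexosamine pathway, went from 3.35, 3.59 and 3.37 to 8.23, 6.19 and 8.67, at least 12.9-fold (adjusted p = 0.0016). Kcne4, a potassium channel subunit, rose 6.10-fold (log2 2.61 ± 0.29, adjusted p = 0.00139). Fbxo27, part of a ubiquitin ligase that recognizes glycoproteins, rose 6.52-fold (adjusted p = 0.000208). Frzb, a secreted Wnt antagonist, rose by 2.84 ± 0.47 in its brighter probe set, from a mean of 5.53 to 8.36 (adjusted p = 0.0148). Its dimmer probe set, tested only through the ketotifen lungs, rose at least 3.21-fold (adjusted p = 0.00139). Gem, a small GTPase, rose by 3.32 ± 0.53 (adjusted p = 0.0134). Tnfrsf12a, the receptor of the cytokine TWEAK, rose 7.73-fold, although its placebo lungs spread from 4.34 to 7.27 (adjusted p = 0.0345). Resp18 rose at least 5.29-fold (adjusted p = 0.0268), with ketotifen lung 2 at 4.41 against 6.88 and 7.92. Gem, Tnfrsf12a and Resp18 each lost the call without CHF placebo lung 2 (adjusted p = 0.084, 0.168 and 0.14) or 3 (0.0772, 0.099 and 0.127) and in at least 2 of 3 runs without a CHF ketotifen lung. Resp18 also lost it with values under 4 set to 4 (0.0953). Irs2, an insulin receptor substrate, Nfil3, a repressor of the circadian clock, and Skil, a repressor of TGF-beta signalling, rose by 1.41, 1.84 and 0.66. Nfil3 and Skil lost their calls without CHF placebo lung 2 (adjusted p = 0.184 and 0.0898) and in at least 3 other such runs.

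Several of the genes that fell belong to blood vessels. Of 27 endothelial genes 3 fell and 0 rose, with a median of -0.51 and 7 positive differences. The mean level of the list was 9.35, 10.08 and 10.01 in CHF placebo lungs 1 to 3 and 9.54, 8.83 and 9.53 in CHF ketotifen lungs 1 to 3, so placebo lung 1 lay within the ketotifen range. In whole lung RNA, fewer cells of a type and less RNA per cell cannot be told apart. Esm1, a proteoglycan secreted by endothelial tip cells, had log2 levels of 9.25, 10.29 and 11.03 with placebo and 7.55, 7.48 and 7.23 with ketotifen, 6.85-fold lower (adjusted p = 0.00317). The sham lungs were at 9.04 to 9.86, overlapping the CHF placebo range. Cldn5, the tight junction claudin of endothelium, was at 12.44, 12.79 and 12.93 with placebo and at 11.77, 11.15 and 11.77 with ketotifen, and fell by 1.16 ± 0.20 (adjusted p = 0.0191). Npr3, the receptor that clears natriuretic peptides, went from 3.98, 5.55 and 5.16 to 2.87 to 3.12, at least 1.86-fold lower (adjusted p = 0.0272).

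Endothelial genes did not all share this direction. Egfl7, which encodes a factor secreted by endothelium, rose by 1.14 in a dimmer probe set (adjusted p = 0.00286). A brighter probe set of Egfl7 was at 1.71 and not called (adjusted p = 0.0624). Emcn, the surface sialomucin endomucin, was at 0.77 (adjusted p = 0.0583; 0.0204 without CHF placebo lung 1), and its ketotifen lungs all lay above its placebo lungs. Kdr, the main receptor of vascular endothelial growth factor, was at -0.67 (adjusted p = 0.288). Of 24 angiogenic factor and receptor genes Esm1 was the 1 called (median -0.24). Of 14 vasoactive peptide and receptor genes Npr3 was the 1 called (median -0.51). Vipr1, a receptor of vasoactive intestinal peptide, was at 12.25, 13.47 and 13.51 with placebo and at 11.82, 11.29 and 11.96 with ketotifen. It just missed the threshold (-1.39 ± 0.30, adjusted p = 0.0524) and passed it without CHF placebo lung 1 (-1.80, adjusted p = 0.000533). Tmem100, a membrane protein of lung endothelium, fell 6.02-fold in a dimmer probe set, from 5.19, 7.13 and 7.61 to 4.55, 3.44 and 4.18 (adjusted p = 0.0381). Its brighter probe set, at a mean of 11.93 with placebo, was at -2.00 and not called (adjusted p = 0.0885). Sema3g, an endothelial semaphorin, fell 2.90-fold, from 10.73, 12.10 and 11.74 to 9.80 to 10.16 (adjusted p = 0.0287). A dimmer probe set of Sema3g was at -0.72 (adjusted p = 0.577). Npr3, Tmem100 and Sema3g lost their calls in every run that left out a CHF lung other than placebo lung 1 (adjusted p up to 0.133, 0.191 and 0.136), and Npr3 also with values under 4 set to 4 (0.182). Cldn5 lost it without CHF placebo lung 2 (0.105) or 3 (0.0991), or without ketotifen lung 2 (0.0513).

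Of 15 genes of the FoxO and thioredoxin-interacting arrestin list 3 fell and 1 rose, with 1 positive difference and a median of -0.51. FoxO factors are active when insulin signalling is low. Arrdc3, an arrestin that takes receptors off the surface, was at 11.72, 12.57 and 12.60 with placebo and at 11.04, 9.88 and 10.95 with ketotifen, 3.18-fold lower (adjusted p = 0.0248). Klf15, a metabolic transcription factor that glucocorticoids induce, was at 9.07, 10.17 and 10.29 with placebo and at 8.03, 6.99 and 8.58 with ketotifen, 3.93-fold lower (adjusted p = 0.0381). Sesn1, a stress-induced inhibitor of growth signalling, fell by 1.03 (adjusted p = 0.0399), and Irs2, given above, rose. Dimmer probe sets of Arrdc3, Klf15 and Sesn1 were not called, at -1.70 (adjusted p = 0.0692), -2.85 (0.113) and -0.28 (0.822). In all 3 that fell placebo lung 1 was the lowest placebo lung. All 3 lost their calls without CHF placebo lung 2 (adjusted p = 0.134, 0.191 and 0.191) or 3 (0.123, 0.172 and 0.178), and Klf15 and Sesn1 in further runs. Klf15 was also the 1 called gene of 19 glucocorticoid-induced genes (median -0.47). Tsc22d3, known as Gilz and a mediator of glucocorticoid action, was at -1.68 (adjusted p = 0.0887; 0.0275 without CHF placebo lung 1), and Fkbp5, a chaperone that glucocorticoids induce, at -1.58 (adjusted p = 0.186). For both the groups did not overlap, and ketotifen lung 2 was lowest.

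**Figure D4:**
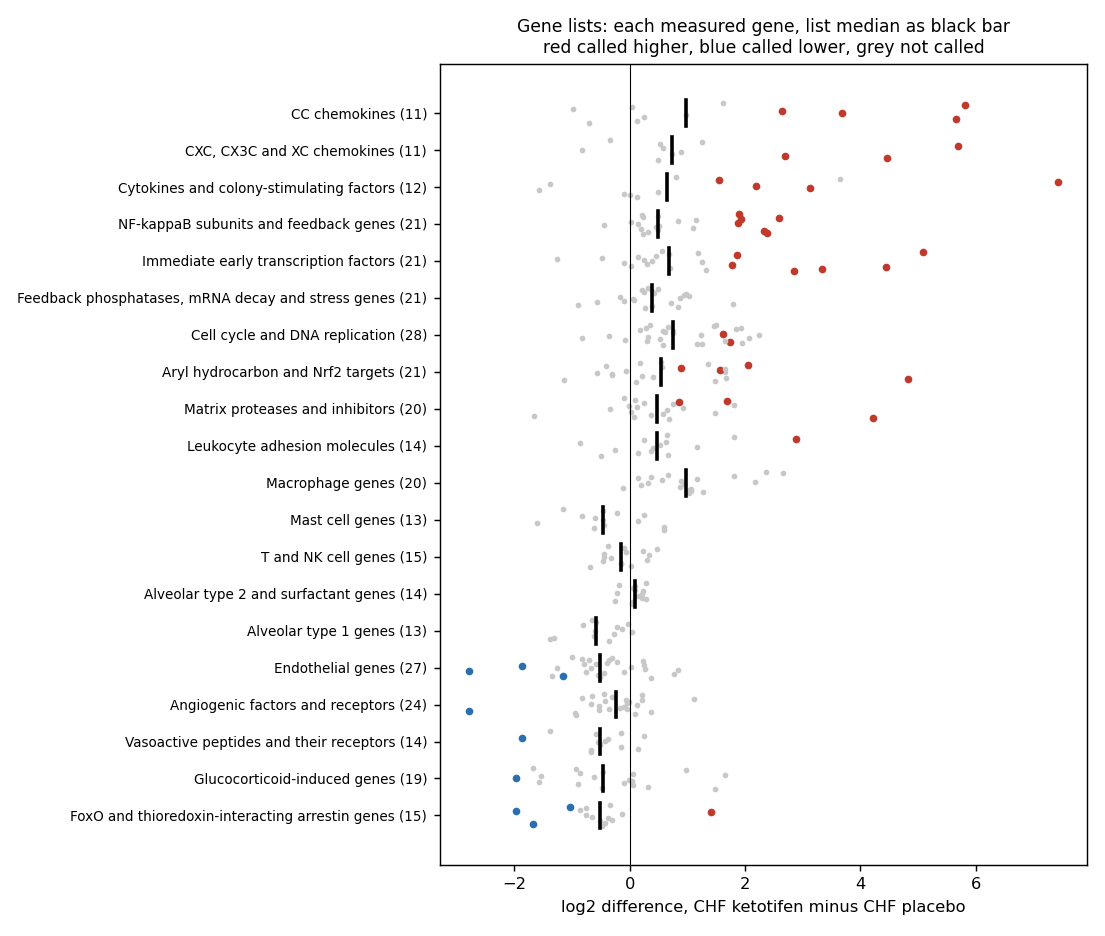
Each point is 1 measured gene of a list (number in brackets), placed by its log2 difference, CHF ketotifen minus CHF placebo, by its brightest probe set; red points were called higher, blue points lower, and black bars are list medians. The chemokine, cytokine, NF-kappaB and immediate early lists reach far to the right through 3 to 6 called genes each, while the blue points lie in the endothelial, angiogenic, vasoactive, glucocorticoid and FoxO lists.

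Further genes that fell were likewise varied. Tle1, a co-repressor of Notch and Wnt target genes, was 3.35-fold lower (adjusted p = 0.0272) and the 1 called gene of 30 Notch and Wnt genes (median -0.09). Tmcc2 was at 9.87, 10.52 and 10.62 with placebo and at 8.61, 7.70 and 8.57 with ketotifen, 4.12-fold lower (adjusted p = 0.00286). Chtf8, a subunit of a clamp loader in DNA replication, was 4.33-fold lower, from 7.29, 7.53 and 7.97 to 5.45, 5.54 and 5.46 (adjusted p = 0.00366). C15h8orf58 was 4.14-fold lower (adjusted p = 0.00676). These last 3 and Esm1 were called in all 6 runs that left out a CHF lung. Kif26b, Trmt1l, Igip, Pabpn1, Zmat1 and Saysd1 fell 2.30-fold to 4.48-fold (adjusted p from 0.0152 to 0.0381), and Miga1 and Mrpl40 fell to below log2 4. The probe sets of Pabpn1 disagreed: 1 fell by 1.59, while the other two, of which 1 was brighter, were at -0.16 (adjusted p = 0.668) and -0.01 (adjusted p = 0.994). A dimmer probe set of Igip was at -0.57 (adjusted p = 0.175). Tle1 lost its call without CHF placebo lung 2 (adjusted p = 0.147) or 3 (0.133), as did these 8 genes (adjusted p up to 0.191), each of them bar Miga1 also without at least 2 CHF ketotifen lungs. A second probe set of Mrpl40 had the opposite sign, as was the case for 7 of the 42 called genes that had more than 1 probe set. Every probe set was called in only 4 of the 42.

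Genes of mast cells, on which ketotifen acts, were not called in this comparison. Of 13 measured genes 0 passed, 4 had a positive difference and the median was -0.46. The mean level of the list was 6.90, 7.95 and 7.52 in CHF placebo lungs 1 to 3 and 7.63, 6.49 and 7.16 in CHF ketotifen lungs 1 to 3. The groups overlapped, and the mean was 5.30 to 6.09 in sham placebo lungs. Tpsb2, a mast cell tryptase, was at 5.17, 7.04 and 5.66 with placebo and at 5.27, 4.10 and 5.06 with ketotifen (adjusted p = 0.213). Of 4 measured genes of histamine receptors and handling Slc22a3, a transporter that takes up histamine, rose by 1.31 (adjusted p = 0.0461). It lost the call without CHF placebo lung 2 (adjusted p = 0.0662) or 3 (0.197), or without ketotifen lung 1 (0.0834) or 3 (0.108).

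Macrophage and neutrophil genes mostly had positive differences, with 1 call. Of 20 macrophage genes 19 had a positive difference (median 0.99) and 0 were called. Their mean level was 9.55, 8.38 and 8.18 in CHF placebo lungs 1 to 3 and 9.81, 9.80 and 9.58 in CHF ketotifen lungs 1 to 3, so placebo lung 1 almost reached the ketotifen lungs. C1qa, a complement gene of macrophages, was at 1.27 (adjusted p = 0.0965) and Trem2, a lipid-sensing receptor, at 2.37 (adjusted p = 0.138); both passed without CHF placebo lung 1 (adjusted p = 0.00646 and 0.0117). All 6 measured neutrophil genes had a positive difference, with Il1r2 called. S100a8 and S100a9, abundant neutrophil proteins, were at 2.40 (adjusted p = 0.152) and 1.97 (adjusted p = 0.181), with overlapping groups. The neutrophil mean was 6.50 to 7.31 in CHF placebo and 7.86 to 8.87 in CHF ketotifen lungs. Of 15 T and natural killer cell genes 0 were called (median -0.14). Of 10 genes on the list for B and plasma cells 1 fell, 2 had a positive difference and the median was -0.49. The 1 that fell was Igip, and a dimmer probe set of it was not called (-0.57, adjusted p = 0.175). The mean level of this list was 6.83 to 7.04 in CHF placebo and 6.24 to 6.32 in CHF ketotifen lungs, without overlap.

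Markers of other tissue in the samples are given by their mean levels, and 0 genes were called in the first 4 lists that follow. The mean of 9 club and secretory airway genes was 7.89 to 9.71 in CHF placebo and 7.14 to 7.65 in CHF ketotifen lungs. Red cell genes averaged 7.60 to 10.32 and 8.02 to 8.20, so the ketotifen lungs lay within the placebo range. Alveolar type 1 genes averaged 10.12 to 10.73 and 9.52 to 9.97. Adipocyte genes averaged 6.98 to 8.01 in CHF placebo and 8.36 to 8.76 in CHF ketotifen lungs, with Lpl at 1.15 (adjusted p = 0.09; 0.0466 without CHF placebo lung 1) and Pck1 at 3.17 (adjusted p = 0.206). Cardiomyocyte genes averaged 2.85 to 3.34 in all 6 lungs, near background. Among 9 mesothelial genes Wt1, a transcription factor of the pleural lining, rose 5.98-fold (adjusted p = 0.0248). It lost the call without CHF placebo lung 2 (adjusted p = 0.121) or 3 (0.0553), or without ketotifen lung 1 (0.0832) or 3 (0.1). The median of that list was -0.65. The part that these markers, or the macrophage, neutrophil, B and plasma cell genes, have in the differences above was not tested.

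Sham lungs gave a second drug comparison with no array in common. There 14 probe sets were called (0.0847%), 0 of them among the 136 increases of the CHF lungs and 1 among the 65 decreases. The count was 722 without sham placebo lung 1 and 4 to 17 without any other sham lung. Sham placebo lung 3 and sham ketotifen lungs 1 and 2 stood apart by heart muscle genes, the cardiomyocyte list having a mean of 7.63, 6.06 and 9.15 there; the remaining 3 sham lungs were at 2.88 to 3.43. The beta-actin gap was 4.23 and 3.90 in sham placebo lungs 2 and 3 and 4.52 in sham ketotifen lung 2, above every CHF lung. The part of these lungs in the sham comparison was not tested. The median sham difference was 0.09 over the called increases and -0.18 over the called decreases. Across the 16536 probe sets the drug differences in CHF and sham lungs had a Pearson correlation of 0.198, a description across genes that are not independent. The test of the difference between the drug effects (the interaction, in limma) called 61 probe sets (0.369%), 42 positive and 19 negative. It called 38 of the 136 increases and 8 of the 65 decreases. For the remaining 155 a different effect in sham lungs was not shown.

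Ccl7, Cxcl2, Tfpi2 and Depdc1 had interaction values with adjusted p from 9.48e-06 to 0.000469, and their sham differences lay between 0.03 and 0.27. All of these were under log2 4 in every sham lung, so their sham values compare background with background. For Ccl7, Cxcl2 and Depdc1 the interaction repeats the CHF difference by which they entered the test. Tfpi2 had 1 CHF placebo lung over 4 and also entered only with CHF ketotifen lungs. Ccl2 was at 0.82 in sham lungs, from 3.62 to 3.91 with placebo to 4.41 to 4.96 with ketotifen, against 5.65 in CHF lungs (interaction adjusted p = 0.000901). Areg, Il1b, Ccl3, Egr2 and Tnfaip3 did not pass the interaction test; their sham differences were 0.75, 0.86, 0.93, 0.79 and 0.95. Among the decreases Esm1 was at 0.30 in sham lungs (interaction adjusted p = 0.0293), and Klf15 at -0.71 did not pass. Vav3, an exchange factor of leukocyte receptors, ran in opposite directions. It fell by 0.67 in CHF lungs (adjusted p = 0.0446) and rose by 1.23 in sham lungs, with an interaction adjusted p of 0.0017. Without any 1 CHF lung other than placebo lung 1, Vav3's call in CHF lungs was lost (adjusted p up to 0.201), as it was with values under 4 set to 4 (0.0503). The count of interaction calls was 303 without CHF placebo lung 1, 195 without sham placebo lung 1 and 21 to 48 without any other lung.

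**Figure D5:**
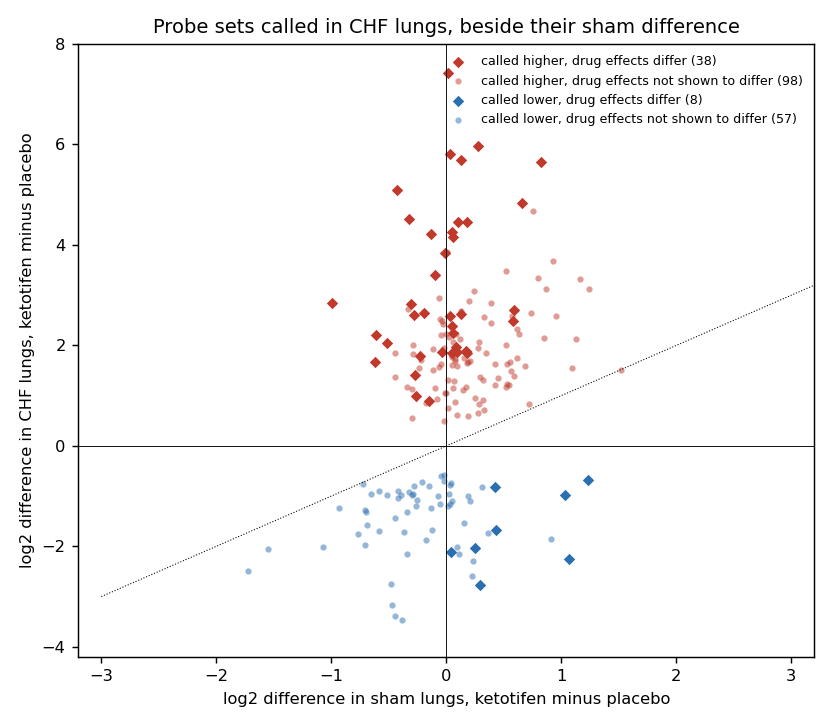
Each point is 1 of the 201 probe sets called in CHF lungs, with its log2 drug difference in sham lungs on the horizontal and in CHF lungs on the vertical axis; diamonds passed the test of the difference between these effects (38 higher, 8 lower), and the dotted line marks equal effects. Most points lie near 0 on the sham axis, with median sham differences of 0.09 for increases and -0.18 for decreases.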

How the data were processed

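Each of the 12 lungs, 3 per group, was measured on an Affymetrix rat genome array. The deposited values are log2 expression per probe set, which the submitters' processing notes credit to GCRMA and R 2.5.0. This method models background from probe base content, which flattens values near background. Neither scanner files nor batch labels entered the work. Precision is set by the number of arrays, since arrays have no depth; 15809 to 16056 probe sets per array reached log2 4. Tests omitted 57 control probe sets. Of the other 31042, 20826 had 1 symbol in the platform annotation, 436 several and 9780 none.

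A single limma 3.58.1 fit (R 4.3.3) of all 12 arrays with 4 group means, moderated with an intensity trend, gave two-sided p-values, adjusted over 16536 probe sets. Errors beside differences are standard errors. Where the lower group's mean was under log2 4, each of its values under 4 was set to 4 before its mean was taken, and the fold is given as at least the other mean over that one.

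The members and the 56 gene lists were chosen with earlier results of these data known. Genes named were the 15 largest called differences each way without overlap, up to 12 each way from or to below log2 4, called list members and up to 4 further members of smallest p per list. Relb, Nfkbia, Fos, Egr1, Fkbp5, Kdr, Cdk1, Egfl7, Vav3 and Stxbp6 were added after their values were seen. So were Arid5a, Il6st, Tiparp's and Top2a's second probe sets, the genes of mitosis outside the list and those with promoter motifs. Alternatives changed the filter, floor, normalization, moderation, arrays fitted and replicate block. The fit was tested on simulated data.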

Additional observations from a re-analysis of the deposited data

Results flagged for a closer look

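The drug effect in CHF lungs differed from that in sham lungs, by limma's interaction test, for 34 of the genes named. Beside each gene stands the log2 difference of the 2 effects, CHF minus sham, and the adjusted p values are limma's.

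For 14 genes the CHF placebo mean lay under log2 4, so these fitted values are uncertain in size and are not ranked. They were Il6 (7.41, adjusted p = 0.00763), Ccl7 (5.77), Tfpi2 (5.70), Cxcl2 (5.55), Nr4a3 (5.52), Adamts4 (4.35), Fosb (4.27), Gfpt2 (4.21), Cyp1a1 (4.17), Srxn1 (2.57), Depdc1 (2.55), Il1r2 (2.49), Arid5a (2.29) and Frzb by a dimmer probe set (3.50). Of these Ccl7, Cxcl2, Fosb, Gfpt2, Cyp1a1, Srxn1, Depdc1, Il1r2, Arid5a and Frzb's dimmer probe set were under 4 in every lung but the CHF ketotifen ones, so they had to differ to be tested. Il6, Tfpi2, Nr4a3 and Adamts4 had 1 other lung over 4, a CHF placebo lung, and also passed the filter only with CHF ketotifen lungs. All 14 were under 4 in every sham lung, so their sham values compare background with background. Positive differences from higher placebo levels were found for Ccl2 (4.83), Cxcl1 (4.36), Ptgs2 (4.09), Kcne4 (2.89), Cxcl3 by a dimmer probe set (2.83), Bcl3 (2.34), Fbxo27 (2.12) and Ier3 (2.01), and Ccl2 was under log2 4 in the sham placebo lungs. Further ones were Myc (1.90), Cdca3 (1.88), Nfkbiz (1.78), Zc3h12a (1.72), Tiparp by a dimmer probe set (1.68), Irs2 (1.68) and Nfe2l2 (1.03), with adjusted p from 0.00763 to 0.0424.

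Negative differences were found for Vav3 (-1.90, adjusted p = 0.0017), Stxbp6 (-2.01, adjusted p = 0.0121), Chtf8 (-2.15, adjusted p = 0.0496), Tmcc2 (-2.29, adjusted p = 0.0242) and Esm1 (-3.07, adjusted p = 0.0293). Stxbp6, which encodes a syntaxin-binding protein, fell by 0.98 with ketotifen in CHF lungs and was at 1.03 in sham lungs. A dimmer probe set of Stxbp6 was at -0.52 in CHF lungs and not called (adjusted p = 0.365). Vav3 and Stxbp6 were thus of opposite sign in the CHF and sham comparisons. Their calls in CHF lungs were lost in every run that left out a CHF lung other than placebo lung 1.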

How the results depend on the processing

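The 201 calls in CHF lungs (136 higher, 65 lower) became 60 (55, 5) with only the 6 CHF arrays fitted, 88 (71, 17) with CHF ketotifen arrays 1 and 3 averaged and 152 (122, 30) with no filter on low values, and 72 to 1219 over runs that left out 1 CHF lung. The interaction's 61 calls became 36 with no filter on low values, 28 with the averaged arrays and 21 to 303 over the runs that left out 1 lung. The 14 sham calls became 7 with a filter at log2 6, 8 with the averaged arrays and 4 to 722 over the runs. List members called higher numbered 31 to 107 over the runs against 46. Those called lower (8) numbered 0 with the 6 CHF arrays, where the unadjusted p was under 0.05 for 2983 probe sets, 2 with no filter, 4 with the averaged arrays, 4 without the 3 sham arrays of largest beta-actin 3' to 5' difference and 1 to 46 over the runs. Same-numbered CHF lungs did not deviate together (r = -0.22, -0.35 and 0.14), so the numbers were not taken to pair the lungs. With the replicate block the counts were 145 (113, 32) for CHF, 37 for the interaction and 6 for sham, with 43 list members higher and 3 lower. With the 6 CHF arrays and the block, an alternative chosen after seeing the data, 6 probe sets were called in limma, 6 list members were higher and 0 lower. These 6 were Ccl2, Ccl7, Cxcl1, Cxcl2, Nr4a3 and Tfpi2, which were called in every setting run. Of them Ccl7, Cxcl2, Nr4a3 and Tfpi2 passed the filter at log2 4 only with CHF ketotifen lungs. Their calls under that filter carry the limit given above. No named gene that was followed through the settings changed sign. Fos, Egr1, Nfkbia, Fkbp5, Kdr, Cdk1 and Egfl7 were not among those followed. Of the 89 called probe sets followed, 44 kept the call in all 6 runs that left out a CHF lung, 53 with the averaged arrays and 70 with the block. Quantile normalization, no intensity trend, robust moderation and a floor at log2 4 gave 216, 200, 198 and 214 calls.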
